A study of Mus musculus with 9 samples.

Results

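The 6 genes Palld, Serpinb8, Pde9a, Cldn3, Clk1 and Cbarp were followed through 9 mouse kidney libraries. They are 6 of 54532 gene identifiers with counts and 6 of the 16646 genes that passed the filter on low counts. They were chosen by a readout, the p-value between treatments: in Trex1-/- mice given SN-011 against Trex1-/- mice given PBS they had some of the smallest p-values outside interferon-induced genes and chaperones. That comparison is therefore described without a test for the 6 genes, which are tested in the comparison of both Trex1-/- groups together with wild type. For other genes, p-values from either comparison are given for some, and the difference alone for the rest.

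The study asked what a block of STING does to the kidney of Trex1-/- mice, a lupus-like model on the C57BL/6J background. The data are 3 groups of 3 kidney libraries each, made by polyA-selected RNA-seq. Wild-type (WT) mice carried no deletion, have no treatment given in the labels, and were bought in at 4 to 8 weeks of age according to the methods. Trex1-/- mice, offspring of heterozygous parents and about 1 month old at the start, received daily intraperitoneal injections for 2 weeks of vehicle (the PBS group) or of the STING antagonist SN-011 (the SN-011 group). TREX1 is an exonuclease that removes cytosolic DNA, and STING relays the signal of the DNA sensor cGAS to the interferon genes. In bulk tissue such as this, fewer cells of a type and less RNA per cell cannot be told apart.

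The libraries held 16118813 to 21928965 counts. No library, WT or Trex1-/-, has a count above 0 for Trex1, so that gene gives no check of the genotype. Atrip, the gene next to Trex1, lay at 14.4 to 16.1 CPM in WT, 40.3 to 48.5 CPM with PBS and 37.1 to 37.6 CPM with SN-011, and so separated the 6 libraries labelled Trex1-/- from the 3 labelled WT. Interferon-induced genes differed by group, with 61 of 67 called higher in Trex1-/- (edgeR, 1.48% of all genes) and 55 of 67 lower without overlap under SN-011 than PBS (8.41% of all genes). The 67 genes of the interferon list summed to 2221 to 2979 CPM (reads per 1000000 counts, scaled by trimmed mean of M-values) in WT, 7255 to 8709 with PBS and 4061 to 5727 with SN-011. The sexes were not balanced. The 3 PBS libraries, SN-011 replicate 2 and WT replicate 3 carried Y-linked reads (Ddx3y, Kdm5d, Eif2s3y and Uty, 153 to 188 CPM over the raw total), and the other 4 libraries carried Xist at 434 to 503 CPM. Kidney identity was clear in every library, since the 7 proximal tubule markers (among them Slc34a1 and Lrp2) summed to 8287 to 10130 CPM.

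The 6 genes have separate roles. Palladin, the product of Palld, is an actin-binding scaffold of stress fibres and focal adhesions. Serpinb8 encodes an intracellular inhibitor of serine proteases that can block furin. Pde9a encodes a phosphodiesterase that breaks down cyclic GMP with high affinity. Claudin-3, from Cldn3, is a membrane protein of tight junctions, the seals between epithelial cells that set which ions pass along a nephron segment. CLK1 is a nuclear kinase that phosphorylates SR proteins, the factors that guide splice site choice, and Cbarp encodes a protein that binds the beta subunit of voltage-gated calcium channels and dampens channel activity.

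The genes lie on 5 chromosomes (GRCm38, GENCODE M21). Palld (ENSMUSG00000058056; chromosome 8, 61511433 to 61902690, minus strand) is the longest at 391258 bases, and Cldn3 (ENSMUSG00000070473; chromosome 5, 134986214 to 134987472, plus strand) is a single exon of 1259 bases. Serpinb8 (ENSMUSG00000026315; chromosome 1, 107590006 to 107610484, plus strand) and Clk1 (ENSMUSG00000026034; chromosome 1, 58410189 to 58424066, minus strand) share a chromosome but lie far apart. Pde9a (ENSMUSG00000041119) is at chromosome 17, 31386210 to 31476310, plus strand, and Cbarp (ENSMUSG00000035640) at chromosome 10, 80130451 to 80140835, minus strand. None shared an exonic base with another gene on its own strand. Exons of genes on the opposite strand covered 8.3% of the exonic bases of Pde9a, 6.0% of Cbarp (Stk11 and Atp5d) and 3.2% of Cldn3, and the strand setting of the counting was not stated, although the methods name a strand-specific protocol for the libraries.

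Promoter windows were in the RefSeq table (GRCm38.p6) for 4 of the 6 genes, and Pde9a and Clk1 had no entry. The 250 bases before the start are shown for 1 start of each gene, 5′ to 3′, to set members that were higher under SN-011 (Palld, Serpinb8, Cbarp) beside a gene that was lower (Cldn3). Palld and Cbarp have further listed starts, and for each the only window that held a motif is shown. The Palld and Cbarp starts shown lie inside the annotated genes, for Palld far from its 5′ end at 61902690. Capitals mark a GC box (GGGCGG, either strand) or a TATA box (TATAAA, either strand).
Palld, chr8:61591140-61591389 (minus strand): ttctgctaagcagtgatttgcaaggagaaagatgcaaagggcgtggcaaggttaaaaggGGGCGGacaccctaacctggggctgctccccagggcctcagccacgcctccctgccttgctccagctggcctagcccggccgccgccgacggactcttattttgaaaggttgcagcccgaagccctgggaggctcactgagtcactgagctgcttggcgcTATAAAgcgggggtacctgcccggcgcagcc
Serpinb8, chr1:107589756-107590005 (plus strand): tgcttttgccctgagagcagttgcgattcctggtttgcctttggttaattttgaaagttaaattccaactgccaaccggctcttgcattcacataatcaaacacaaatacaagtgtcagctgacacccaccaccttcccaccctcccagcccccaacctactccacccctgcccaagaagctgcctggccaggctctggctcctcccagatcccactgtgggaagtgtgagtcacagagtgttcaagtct
Cldn3, chr5:134985964-134986213 (plus strand): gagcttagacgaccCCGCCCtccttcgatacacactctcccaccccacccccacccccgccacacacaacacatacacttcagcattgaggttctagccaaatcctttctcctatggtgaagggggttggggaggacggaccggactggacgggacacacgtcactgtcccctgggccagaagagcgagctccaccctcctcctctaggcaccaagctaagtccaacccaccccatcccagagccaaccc
Cbarp, chr10:80139368-80139617 (minus strand): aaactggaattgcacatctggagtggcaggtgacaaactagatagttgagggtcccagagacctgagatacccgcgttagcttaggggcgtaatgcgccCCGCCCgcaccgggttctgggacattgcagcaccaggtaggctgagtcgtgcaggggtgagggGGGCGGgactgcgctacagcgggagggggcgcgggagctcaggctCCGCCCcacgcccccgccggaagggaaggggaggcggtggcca

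Of the 7 windows listed for the 4 genes, those of Palld at 61591140, Cldn3 and Cbarp at 80139368 held a GC box, with 3 of them in Cbarp, and 32.74% of all 32851 windows held at least 1. A TATA box was found in 1 window, that of Palld shown here, 31 to 26 bases before the start, against 12.37% of all windows. Searched on both strands, the interferon-stimulated response element (GAAA and GAAA with 2 bases between, 2.98% of all windows), the heat shock element (GAA, TTC and GAA, each 2 bases apart, 0.47%), the glucocorticoid response element (GNACA and TGTNC, 3 bases apart, 0.39%), the cyclic AMP response element TGACGTCA (1.55%), the E-box CACGTG (6.02%) and the CCAAT box CCAAT (33.85%) were not in any of the 7 windows. The Cbarp window shown was rich in G and C (66.0%, with 18 CpG) and that of Serpinb8 was not (52.0%, with 2 CpG), at a median of 52.4% and 6 CpG over all windows. The counts are per gene, so they do not show which start was used.

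**Figure D1:**
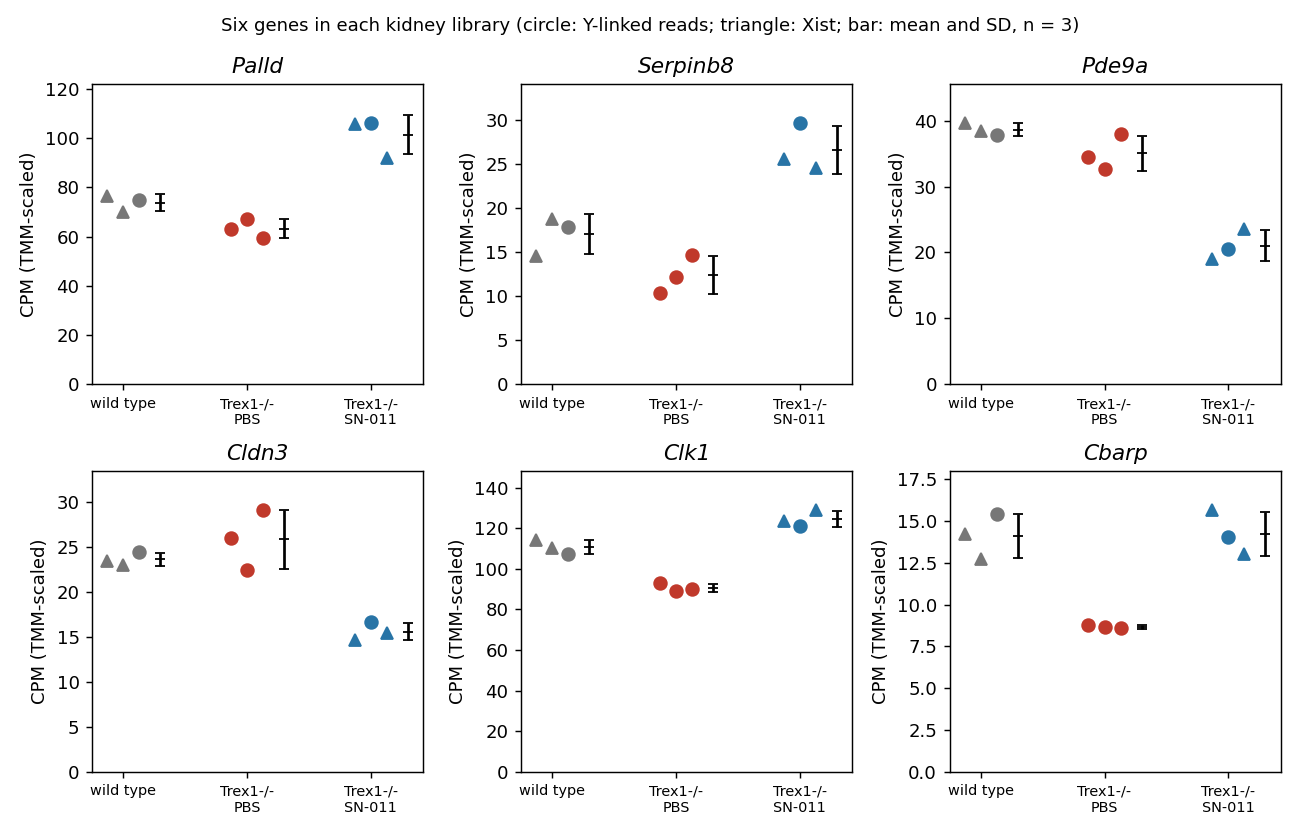
CPM of the 6 genes (y axis, from 0) in each of the 9 libraries, by group (x axis). Circles are libraries with Y-linked reads, triangles are libraries with Xist, and bars give the mean and SD of 3 libraries. For all 6 genes the SN-011 and PBS libraries do not overlap, and SN-011 replicate 2, the circle in that group, sits with the other SN-011 libraries.

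Palld was higher under SN-011 than in both other groups. Its level was 76.2, 69.8 and 75.0 CPM in WT replicates 1 to 3, 62.9, 67.1 and 59.5 CPM with PBS, and 106, 106 and 92.1 CPM with SN-011. The 3 groups did not overlap, with PBS lowest, WT in the middle and SN-011 highest. Between SN-011 (101 ± 7.99 CPM) and PBS (63.2 ± 3.81 CPM, SD, n = 3 each) the difference was 0.68 on the log2 scale (SE 0.0878), or 1.60-fold. PBS was below WT (73.7 ± 3.43 CPM) by a smaller step, at a log2 difference of -0.22 (SE 0.0876), and SN-011 was above WT by 0.46 (SE 0.0874).

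Serpinb8 showed the widest step of the 6. It had 14.5, 18.8 and 17.8 CPM in WT, 10.4, 12.1 and 14.7 CPM with PBS, and 25.6, 29.7 and 24.6 CPM with SN-011. Every SN-011 library lay above every other library, while the highest PBS library lay just above the lowest WT library. The mean was 26.6 ± 2.71 CPM under SN-011 and 12.4 ± 2.17 CPM in PBS (SD, n = 3), a log2 difference of 1.10 (SE 0.151), or 2.14-fold. Against WT (17.0 ± 2.24 CPM) the log2 difference was 0.64 (SE 0.148) for SN-011 and -0.46 (SE 0.151) for PBS. These values rest on 171 to 512 reads per library.

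Clk1 had the smallest step and the smallest pooled spread. Its level was 114, 110 and 107 CPM in WT, 92.8, 88.9 and 90.2 CPM with PBS, and 124, 121 and 129 CPM with SN-011. The groups kept apart in the same order as for Palld. SN-011 (125 ± 4.001 CPM) exceeded PBS (90.7 ± 1.98 CPM, SD, n = 3) by 0.46 on the log2 scale (SE 0.0736), or 1.37-fold. Here the larger part lay between PBS and WT (111 ± 3.57 CPM), at -0.29 (SE 0.0735), and SN-011 was above WT by 0.17 (SE 0.0733). The pooled SD within groups was 0.042 on the log2 scale, against 0.033 for counting error alone at this depth, and 1.5% of the genes nearest in level had a smaller one. Genes chosen for a small p tend to have a small estimated spread, so this is not read as a trait of Clk1.

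Cbarp was low in the PBS group and near the WT level with SN-011. It had 14.2, 12.7 and 15.4 CPM in WT, 8.77, 8.64 and 8.58 CPM with PBS, and 15.6, 14.0 and 12.999 CPM with SN-011. The PBS libraries lay below all others, and WT and SN-011 overlapped. SN-011 (14.2 ± 1.33 CPM) was above PBS (8.66 ± 0.0978 CPM, SD, n = 3) by 0.72 on the log2 scale (SE 0.122), or 1.64-fold, and differed from WT (14.1 ± 1.33 CPM) by 0.01 (SE 0.118). PBS was below WT by a log2 difference of -0.70 (SE 0.121). The SD of the 3 PBS libraries, which hold 138 to 148 reads each, was smaller than the 0.724 CPM that counting error alone gives, so the closeness of these libraries cannot be read as their biological spread.

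Pde9a and Cldn3 were the members that were lower under SN-011. Pde9a had 39.7, 38.5 and 37.8 CPM in WT, 34.5, 32.6 and 37.9 CPM with PBS, and 19.0, 20.5 and 23.6 CPM with SN-011. All SN-011 libraries were below all others, and PBS and WT overlapped by 1 library. The level was 21.02 ± 2.33 CPM under SN-011 and 35.0 ± 2.67 CPM in PBS (SD, n = 3), a log2 difference of -0.74 (SE 0.103), or 0.600 of the PBS level. Against WT (38.6 ± 0.949 CPM) the log2 difference was -0.88 (SE 0.103) for SN-011 and -0.14 (SE 0.101) for PBS.

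Cldn3 had 23.5, 23.0 and 24.4 CPM in WT, 26.0, 22.5 and 29.1 CPM with PBS, and 14.7, 16.6 and 15.5 CPM with SN-011. The PBS libraries spread around the WT libraries, and the SN-011 libraries lay below both. SN-011 (15.6 ± 0.984 CPM) was lower than PBS (25.9 ± 3.31 CPM, SD, n = 3) by a log2 difference of -0.73 (SE 0.110), or 0.604 of the PBS level. Against WT (23.6 ± 0.705 CPM) the log2 difference was -0.60 (SE 0.110) for SN-011 and 0.13 (SE 0.108) for PBS.

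**Figure D2:**
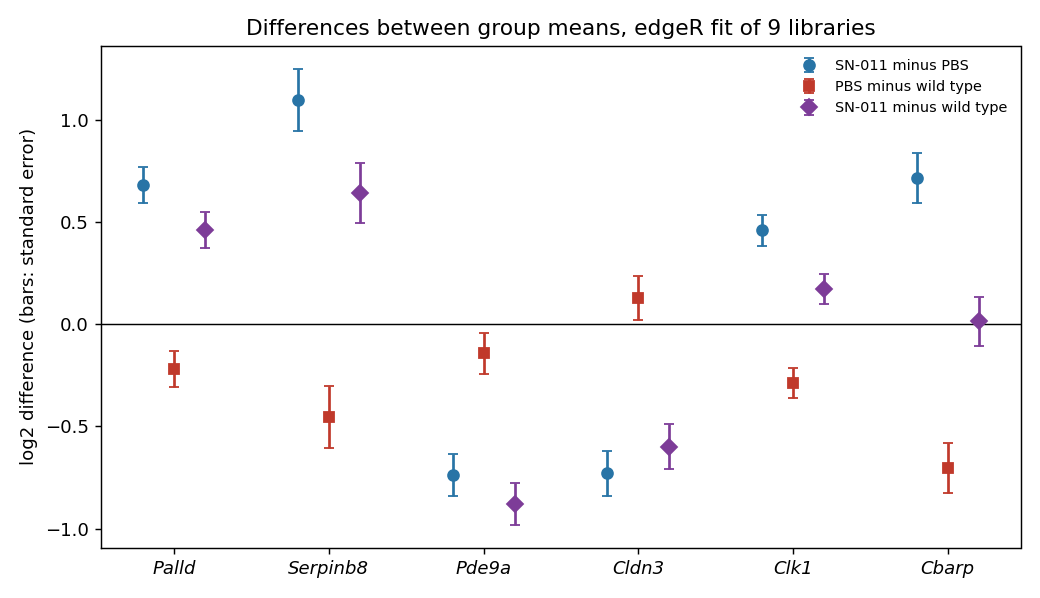
Log2 differences between group means (y axis, bars are standard errors) for the 6 genes (x axis), with SN-011 minus PBS as circles, PBS minus WT as squares and SN-011 minus WT as diamonds. Palld, Serpinb8, Pde9a and Cldn3 lie farther from 0 in SN-011 minus WT than in PBS minus WT, and Cbarp is at 0.01 in SN-011 minus WT and at -0.70 in PBS minus WT.

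The 6 genes differed in where WT lay. The counts that follow all involve the comparison that chose the genes or share libraries with it, so the shares over all genes are given beside them and nothing is read from the difference. For Palld, Serpinb8, Pde9a, Cldn3 and Clk1, the SN-011 libraries stood outside both other groups, on 1 side of them, which held for 6.21% of all genes tested. For Palld, Clk1 and Cbarp, the PBS libraries stood below both other groups, and PBS stood apart in this way, on either side, for 5.08% of all genes. SN-011 and PBS did not overlap for 16.1% of all genes (7.74% higher, 8.41% lower), and for all 6 members, a count that their choice fixed. PBS and WT did not overlap for 25.4% of all genes and for Palld, Clk1 and Cbarp. SN-011 and WT did not overlap for 21.7% of all genes and for the members other than Cbarp. All 3 differences share libraries in pairs, so the differences of PBS and of SN-011 from WT carry no test here.

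Where the members ended in the ranking by p, SN-011 against PBS, was not a gapless series. They held places 1 (Palld), 2 (Serpinb8), 3 (Pde9a), 5 (Cldn3), 8 (Clk1) and 12 (Cbarp). Between them stood Gm6658, Herpud1 (a protein of endoplasmic reticulum degradation, 0.71 on the log2 scale), Gm7536, the DNA helicase gene Blm, and the interferon-induced genes Ifitm3 and Apol9a. Just inside the end of the series, Cbarp had a log2 difference of 0.72, and the next genes outside were Gm43360 at 5.05, at a mean of 0.468 CPM, Ano3 at 1.204 and Greb1l at -0.97. No gene passed an adjusted p under 0.05 in this comparison by edgeR's quasi-likelihood test (0% of genes), 1905 (11.4%) had an unadjusted p under 0.05, and the DESeq2 Wald test and edgeR's exact test called 183 and 127 genes. The quasi-likelihood test itself called 519 genes without SN-011 replicate 2 and 22 without SN-011 replicate 3. Without SN-011 replicate 2, all SN-011 libraries carried Xist and all PBS libraries Y-linked reads. Treatment and sex cannot be told apart in that fit. The places depend on the fit: Palld held place 1 with limma-voom, 5 with the exact test and 59 without SN-011 replicate 2, where Cbarp held place 212. In libraries with Y-linked reads alone the places ran from 53 (Serpinb8) to 798 (Cldn3).

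In the comparison that the choice did not use, the mean of both Trex1-/- groups against WT, 1 of the 6 genes was called. By edgeR's quasi-likelihood test 405 of 16646 genes passed an adjusted p under 0.05 (2.43%), 246 of them higher and 159 lower (0.955%). Pde9a fell, with a log2 difference of -0.51 (SE 0.0862, adjusted p 0.0128), and 5 of its 6 Trex1-/- libraries lay below all 3 WT libraries. The exception was PBS replicate 3. All 6 members overlapped between Trex1-/- and WT, where 9.13% of all genes did not. The PBS libraries contributed a Pde9a difference from WT of -0.14 and the SN-011 libraries a difference of -0.88. An exact two-sided permutation test of 6 against 3 libraries gave an unadjusted p of 0.0476 for Pde9a and of 0.31 to 0.833 for the other 5 members, where 0.0238 is the smallest p possible. The call was lost without WT replicate 1 (adjusted p 0.0741) or WT replicate 2 (0.0685), and its adjusted p lay between 5.14e-05 and 0.127 across the alternatives.

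The other 5 genes missed the threshold in that comparison. Cbarp had a log2 difference of -0.34 (SE 0.102, edgeR adjusted p 0.119) and Cldn3 of -0.24 (SE 0.0935, adjusted p 0.221). Palld (0.12, SE 0.0760), Serpinb8 (0.09, SE 0.129) and Clk1 (-0.06, SE 0.0634) lay near 0, with adjusted p of 0.438, 0.749 and 0.664. For these 3, PBS lay below WT and SN-011 above it, so that the mean of both groups fell near the WT level. The spread of each gene enters both comparisons, and genes chosen for a small p tend to have a small estimated spread, so these p-values lean toward small values.

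Within libraries of the same sex-linked class the steps were about as large. Among the libraries with Y-linked reads, SN-011 replicate 2 differed from the mean of the 3 PBS libraries, in log2 CPM, by 0.75 for Palld, 1.26 for Serpinb8, -0.77 for Pde9a, -0.63 for Cldn3, 0.42 for Clk1 and 0.69 for Cbarp. Among the 4 libraries with Xist, SN-011 minus WT was 0.43 for Palld, 0.60 for Serpinb8, -0.88 for Pde9a and -0.62 for Cldn3. It was 0.17 for Clk1 and 0.08 for Cbarp. Within WT, Xist minus Y-linked libraries ran from -0.19 for Cbarp to 0.07 for Clk1, and within SN-011 from -0.24 for Serpinb8 to 0.06 for Clk1. With a covariate for Y-linked reads in the fit, SN-011 minus PBS was 0.41 for Clk1, and no member's sign changed. These values rest on 1 SN-011 and 1 WT library with Y-linked reads and have no test. SN-011 replicate 2 and the PBS libraries were among those that chose the genes, so a similar step there is no separate check.

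SN-011 replicate 2 also carried the highest chaperone transcripts. The 44 chaperone genes of a list (median 0.22 between SN-011 and PBS, 15 higher without overlap against 7.74% of all genes), which are heat shock and endoplasmic reticulum folding factors, summed to 18270 CPM there, against 11200 and 12150 CPM in the other SN-011 libraries, 9778 to 11260 CPM with PBS and 10700 to 11950 CPM in WT. Among the 3 SN-011 libraries it was the highest SN-011 library for Serpinb8 and, narrowly, for Palld, the lowest for Clk1, the middle for Pde9a and Cbarp, and for Cldn3 the nearest to PBS. The part of this library's chaperone level in the members' values was not tested. Leaving it out gave SN-011 minus PBS differences of 0.64 for Palld, 1.01 for Serpinb8, -0.72 for Pde9a, -0.78 for Cldn3, 0.47 for Clk1 and 0.72 for Cbarp on the log2 scale. Both SN-011 libraries left carry Xist and all PBS libraries carry Y-linked reads. Treatment and sex cannot be told apart in these differences.

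Per kilobase of annotated exon, Cldn3 was the most abundant of the 6 in WT, at 18.8 ± 0.560 CPM per kb (SD, n = 3). Clk1 followed at 13.6 ± 0.439, Pde9a at 10.9 ± 0.268 and Palld at 7.16 ± 0.333 CPM per kb. Serpinb8 (3.55 ± 0.466) and Cbarp (2.82 ± 0.266) were lowest, and neighbours in this order differed by more than the sum of their SDs, except Serpinb8 and Cbarp, which differed by about that sum. With SN-011, Clk1 (15.3 ± 0.492) stood above Cldn3 (12.4 ± 0.781), and Palld (9.84 ± 0.777) above Pde9a (5.94 ± 0.659), in CPM per kb. These levels use the union of all annotated exons.

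**Figure D3:**
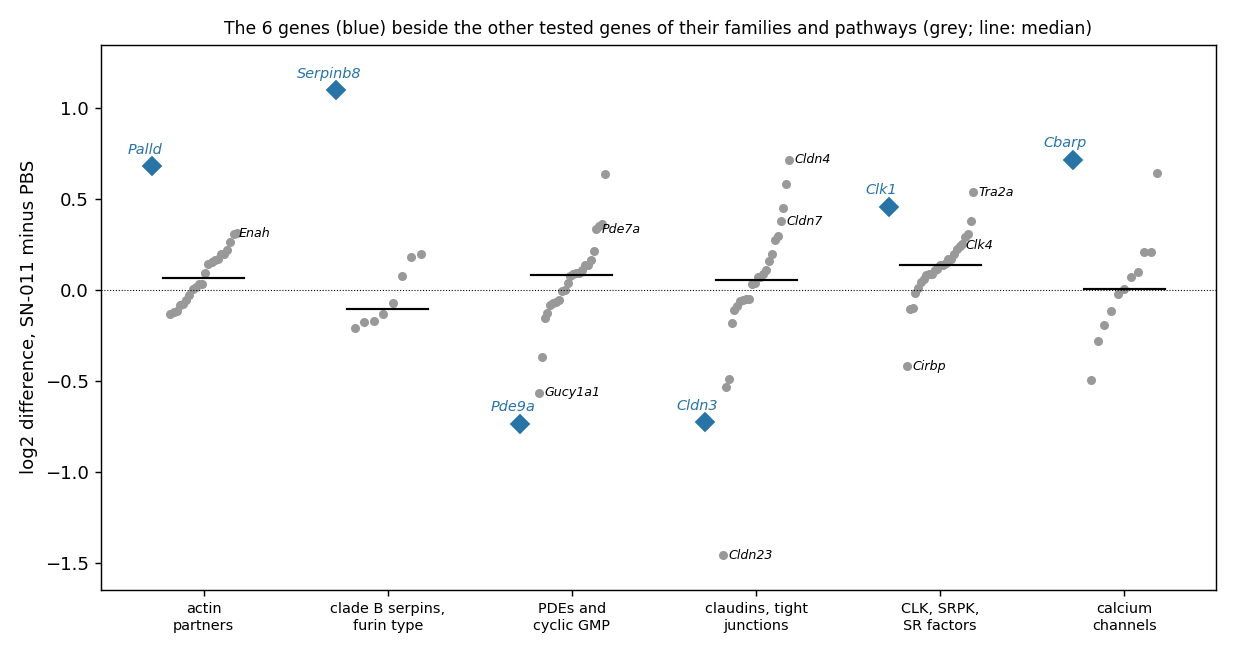
SN-011 minus PBS on the log2 scale (y axis) for the 6 genes (blue diamonds) and the other tested genes of their families and pathways (grey points, black line is their median; 6 lists on the x axis). The medians lie between -0.10 and 0.14, and in the CLK, SRPK and SR factor list 21 of 25 grey points lie above 0.

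By edgeR's quasi-likelihood test, no gene of the 6 family and pathway lists was called between SN-011 and PBS, as for all 16646 genes (0%). The share over all genes in Trex1-/- against WT was 2.43% called and 0.955% called lower. Of 22 tested genes of the list beside Palld, 0 were called in Trex1-/- against WT by edgeR's test, with a median log2 difference of 0.07 between SN-011 and PBS and of 0.03 between Trex1-/- and WT, where all genes had medians of -0.01 and -0.00. The α-actinins Actn1 and Actn4, which bind palladin, differed by 0.01 (SE 0.141) and 0.03 (SE 0.113) between SN-011 and PBS. In Trex1-/- against WT, the smooth muscle actin gene Acta2 was 0.56 higher (SE 0.138, edgeR adjusted p 0.0690) and Vasp 0.25 higher (SE 0.0802, 0.146). Both were without overlap, as were 9.13% of all genes. The smooth muscle genes Tagln, Myl9 and Cnn1 were at 0.68, -0.08 and -0.18, all with overlap. Between SN-011 and PBS, Enah, an actin-elongation factor, was 0.31 higher under SN-011 (SE 0.104, edgeR adjusted p 0.311), without overlap. In that comparison 2 of the 22 genes were higher without overlap, against 7.74% of all genes. The other palladin family members, Myot and Mypn, were near 0 CPM in all groups and were not tested.

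Other clade B serpins and furin-type proteases differed less than Serpinb8. The 8 tested genes ran from -0.21 to 0.20 on the log2 scale between SN-011 and PBS, with a median of -0.10. Serpinb6a differed by 0.18 (SE 0.105), Serpinb9, a granzyme B inhibitor, by -0.17 (SE 0.125), and Furin by -0.18 (SE 0.138). In Trex1-/- against WT, 1 of the 8 was called (0.955% of all genes were called lower), the convertase gene Pcsk6, which fell by 0.49 (SE 0.108, edgeR adjusted p 0.0467) from 97.5 ± 15.9 CPM in WT to 72.7 ± 4.83 CPM in the PBS libraries and 66.3 ± 6.83 CPM under SN-011 (SD, n = 3).

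The cyclic GMP list held 24 tested genes beside Pde9a, with a median of 0.08 between SN-011 and PBS. The cyclic GMP-specific Pde5a differed by -0.13 (SE 0.162) and the abundant Pde1a by 0.14 (SE 0.156). Gucy1a1, a subunit of the soluble guanylate cyclase that makes cyclic GMP, was 0.57 lower (SE 0.177, edgeR adjusted p 0.289), and Pde6d was 0.37 lower (SE 0.122), both without overlap. Pde7a was 0.33 higher (SE 0.107), Npr3 0.21 higher (SE 0.0971), and Prkg2, a cyclic GMP-dependent kinase gene with group means under 1 CPM, 0.64 higher (SE 0.354), all without overlap. Over all genes 7.74% were higher and 8.41% lower without overlap. In Trex1-/- against WT, 4 of the 24 genes were above 0 (median -0.11), against 8287 of all 16646. Of the 24, 1 was called (0.955% of all genes were called lower), Npr2, a receptor guanylate cyclase for natriuretic peptide, by edgeR's test at -0.94 (SE 0.166, adjusted p 0.0160). Npr2 had 38.0 ± 10.03 CPM in WT, 19.3 ± 1.53 in the PBS libraries and 20.4 ± 4.05 under SN-011 (SD, n = 3).

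Of the 24 tested claudins and tight junction genes beside Cldn3, 5 were higher and 1 lower without overlap between SN-011 and PBS, against 7.74% and 8.41% of all genes. Cldn4, which lies 39280 bases from Cldn3 and is a claudin of the collecting duct, was 33.7 ± 2.09 CPM in WT, 33.6 ± 5.08 in the PBS libraries and 55.3 ± 17.3 under SN-011 (SD, n = 3), a log2 difference of 0.72 (SE 0.210, edgeR adjusted p 0.278) between SN-011 and PBS, with overlap. Cldn7 was 0.38 higher (SE 0.128, adjusted p 0.316), and the tight junction proteins Ocln and Marveld2 (tricellulin) were 0.29 (SE 0.0870) and 0.28 (SE 0.0924) higher, all without overlap, as were Cldn12 at 0.20 and Marveld3 at 0.09. Cldn8 (0.03, SE 0.132) and Cldn10 (-0.09, SE 0.133), claudins of the collecting duct and of the loop of Henle, lay near 0. Cldn23, at under 1 CPM, was 1.46 lower without overlap (SE 0.370, adjusted p 0.241).

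The 24 tested genes beside Cldn3 had a median of 0.05 between SN-011 and PBS. In Trex1-/- against WT, 1 of the 24 was called (0.955% of all genes were called lower), Cldn19 of the thick ascending limb, at -0.67 (SE 0.0987, edgeR adjusted p 0.00646). Cldn19 had 75.3 ± 12.0 CPM in WT, 46.3 ± 4.46 in the PBS libraries and 48.6 ± 1.17 under SN-011 (SD, n = 3). The sums of collecting duct markers overlapped between PBS and SN-011. The 4 principal cell markers (Aqp2, Aqp3, Scnn1g and Avpr2) summed to 832.9 to 1128 CPM in PBS and 783.8 to 1277 CPM under SN-011, and the 4 intercalated cell markers to 270.3 to 314.3 and 258.6 to 325.9 CPM.

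Of the 25 tested genes listed beside Clk1, which are CLK and SRPK kinases, SR and related splicing factors and the cold-induced RNA-binding protein genes Cirbp and Rbm3, 0 were called in Trex1-/- against WT (2.43% of all genes), 21 were above 0 between SN-011 and PBS against 8136 of all 16646 (median 0.14, against -0.01 over all genes), and 9 were higher without overlap, against 7.74% of all genes. Among them were Tra2a at 0.54 (SE 0.0954, edgeR adjusted p 0.168), Tra2b at 0.38 (SE 0.0924, 0.241) and Srsf7 at 0.31 (SE 0.0803, 0.245), which bind splicing enhancers. Of the other CLK kinases, Clk4 was 0.24 higher (SE 0.0706, adjusted p 0.278) without overlap, and Clk2 (0.17, SE 0.105) and Clk3 (0.08, SE 0.0864) overlapped. Cirbp was at -0.42 (SE 0.169, adjusted p 0.394) with overlap, and Rbm3 at 0.25 without.

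The calcium channel genes gave no common direction. Of 11 tested genes, 0 were called in Trex1-/- against WT (2.43% of all genes), and the median SN-011 minus PBS was 0.00 on the log2 scale. The beta subunits that CBARP binds gave 0.21 for Cacnb1 (SE 0.160), 0.21 for Cacnb2 (SE 0.250), 0.00 for Cacnb3 (SE 0.131) and -0.28 for Cacnb4 (SE 0.146). In Trex1-/- against WT the median was -0.23, and Cbarp, at -0.34, lay near it.

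**Figure D4:**
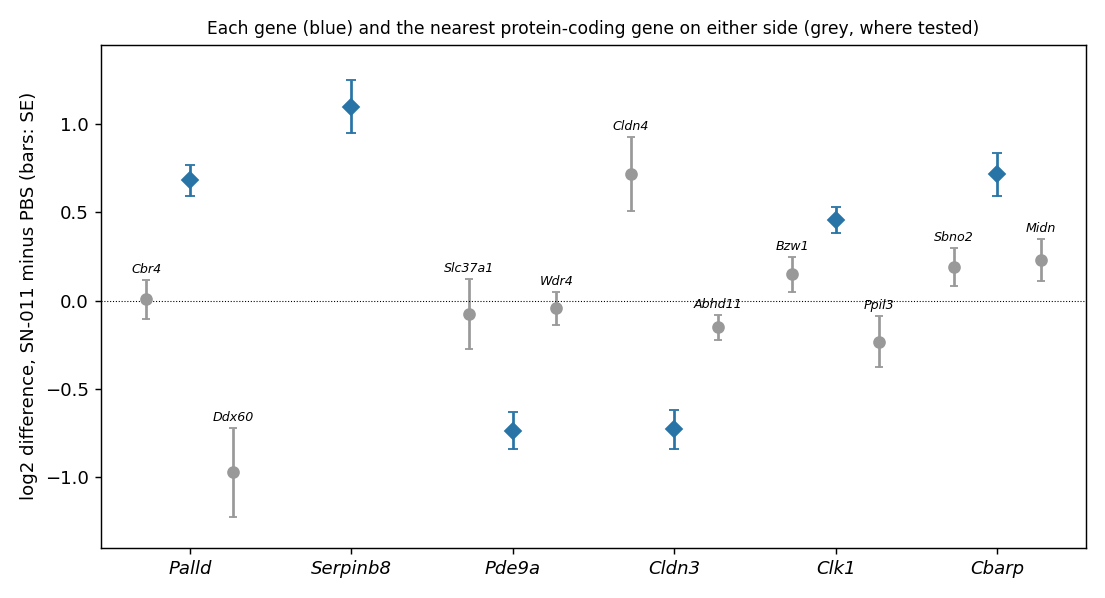
SN-011 minus PBS on the log2 scale (y axis, bars are standard errors) for the 6 genes (blue diamonds) and the nearest protein-coding gene that does not overlap them on either side (grey circles, where tested). Ddx60 beside Palld and Cldn4 beside Cldn3 point away from the member, at -0.97 and 0.72. The remaining neighbours, among them Ppil3 on the other side of 0 from Clk1, lie between -0.23 and 0.23.

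The genes next door had smaller or opposite differences. Ddx60, an interferon-induced helicase gene 25397 bases from Palld, was 2.10 higher in Trex1-/- than in WT (edgeR adjusted p 0.00195) and 0.97 lower with SN-011 than with PBS (SE 0.2505, adjusted p 0.242), against the direction of Palld. Cbr4, 4739 bases from Palld on the other side, differed by 0.01 (SE 0.110) between SN-011 and PBS. Slc37a1 and Wdr4 beside Pde9a differed by -0.08 (SE 0.197) and -0.04 (SE 0.0949). Beside Clk1, Bzw1, 2836 bases away, differed by 0.15 (SE 0.0979) and Ppil3 on the other side by -0.23 (SE 0.144). Sbno2 and Midn beside Cbarp differed by 0.19 (SE 0.105) and 0.23 (SE 0.118). Stk11 and Atp5d, whose exons overlap Cbarp on the other strand, differed by 0.05 (SE 0.0958) and 0.10 (SE 0.0980) and were at 122 and 557 CPM with SN-011. The neighbours of Serpinb8, Serpinb2 and Cdh7, were at or near 0 CPM and were not tested.

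Over the 9 libraries, the members varied together to a differing degree, which their choice on SN-011 against PBS favours. As a description of log2 CPM across 9 libraries that share 3 groups and 1 choice of genes, Pearson's r with Palld was 0.888 for Serpinb8, 0.873 for Clk1 and 0.754 for Cbarp, and -0.939 for Cldn3 and -0.883 for Pde9a. Pde9a and Cldn3 had an r of 0.922 with each other, and Cbarp and Pde9a had the weakest, at -0.390. Among 14841 genes with a mean of at least 1 CPM, those most like Palld were Herpud1 (0.950), the AMP kinase subunit gene Prkaa1 (0.946) and Pmaip1 (0.944), which encodes the cell death protein NOXA. Most like Serpinb8 were Egfl8 (0.951) and Tra2a (0.938). Most like Pde9a were Kctd13 (0.971), Abhd11 (0.969), which is also the neighbour of Cldn3, and Fpgs (0.962), the folate polyglutamylation enzyme.

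For the other members the likeness was as high. Cldn3 was matched by Rspo1 (0.969), a Wnt-enhancing secreted protein, Rpusd3 (0.965) and the matrix protein gene Matn2 (0.958). Clk1 was matched by Clp1 (0.961), an RNA-processing kinase, Zcchc9 (0.947) and Gprasp1 (0.933), and Cbarp by the long noncoding RNA Hotairm1 (0.967), Pja2 (0.952) and Ablim3 (0.938). The steps of the matching genes were often smaller. Abhd11 differed by -0.15 (SE 0.0726) between SN-011 and PBS and Prkaa1 by 0.28 (SE 0.0798), against -0.74 for Pde9a and 0.68 for Palld.

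Markers of kidney cell types differed to a varying degree. Between SN-011 and PBS, 4 podocyte markers had a median log2 difference of 0.20, 4 endothelial markers of -0.09, 7 proximal tubule markers of 0.06, 4 markers of the loop of Henle and distal tubule of 0.12, and 6 markers of smooth muscle, mesangium and fibroblasts of -0.21. Of the 5 immune markers (median -0.53), 2 were lower without overlap, against 8.41% of all genes, with sums of 29.3 to 34.7 CPM with PBS, 16.8 to 30.4 CPM with SN-011 and 14.7 to 20.9 CPM in WT. The 4 fat markers (Adipoq, Plin1, Cfd and Ucp1) had a median of -0.14, with sums of 25.2 to 78.6 CPM with PBS, 18.5 to 80.6 CPM with SN-011 and 57.9 to 182.3 CPM in WT. Of the 41 marker genes tested, 1 was called in Trex1-/- against WT, near the 2.43% of all genes, the glucose transporter gene Slc5a2, which fell by 0.61 (SE 0.106, edgeR adjusted p 0.0154). No marker gene was at 0 in all libraries, and the part of cell composition in the steps of the 6 genes was not tested.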

How the data were processed

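Kidney RNA in 3 groups of 3 libraries was profiled by paired-end, polyA-selected RNA-seq. According to the labels and methods, the authors trimmed reads with Trimmomatic, aligned them to mm10 with HISAT2 and counted uniquely mapped pairs per gene with featureCounts; versions, annotation and strand setting are not given in the sources used here. The deposited values are raw counts. Of 54532 identifiers, 54495 matched GENCODE M21 (GRCm38), which gave symbols and positions.

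The fits used edgeR 4.0.16 under R 4.3.3. filterByExpr (at least 10 reads, 15 in total) kept 16646 genes, scaling was by TMM (factors 0.926 to 1.06), and 1 quasi-likelihood fit held a mean per group. P-values were adjusted by Benjamini-Hochberg over all genes. Standard errors come from the F statistic. log2 CPM used a prior count of 2. The labels name separate samples but not their animals (the study gives 3 per group), so p-values measure the spread between these samples. WT and SN-011 each hold libraries of both sex-linked classes, and so more than 1 animal. DESeq2 1.42.0 and limma 3.58.1 (voom) were alternatives.

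The members and gene lists were chosen with earlier results of these data known. Named genes followed a rule: the 6 members, the ranking by p around them, listed paralogs and partners, list genes called in Trex1-/- against WT, neighbours, and the 3 genes most correlated with each member, of which 1 is not reported here. Acta2, Vasp, Tagln, Myl9, Cnn1, Cldn12, Marveld3, Rbm3, Atrip, Enah, Pde6d, Pde7a, Npr3, Gucy1a1, Ocln, Marveld2, Cldn23, Tra2b, Srsf7, Stk11 and Atp5d were named after their values were seen. Replicate numbers of PBS and SN-011 libraries were checked: same-numbered libraries deviated together (r 0.26, 0.305 and 0.135 across genes), so the numbers may pair these groups, though no label says why; those of WT did not in every pair (0.171, -0.034 and 0.112 with PBS, 0.313, -0.357 and -0.19 with SN-011). The steps were tested on simulated data.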

Additional observations from a re-analysis of the deposited data

How the results depend on the processing

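The 6 members were chosen on SN-011 against PBS and do not overlap between these groups, so a kept sign there follows from the choice. Every alternative kept the sign of SN-011 minus PBS for the 6 members, over 20 settings each, within 0.64 to 0.77 for Palld, 0.99 to 1.28 for Serpinb8, -0.82 to -0.67 for Pde9a, -0.81 to -0.61 for Cldn3, 0.41 to 0.48 for Clk1 and 0.64 to 0.78 for Cbarp (log2). With the replicate block these were 0.68, 1.11, -0.74, -0.72, 0.46 and 0.71 in that order, and the block changed no member's call (it gave 0 genes between SN-011 and PBS, and 396 in place of 405 in Trex1-/- against WT). The number of genes called between SN-011 and PBS was 127 with no filter beyond at least 1 read, 183 by the DESeq2 Wald test, 127 by edgeR's exact test and 107 in libraries with Y-linked reads, where WT and SN-011 have 1 library each and are assumed to vary like PBS. It ran from 0 to 519 with 1 library left out, at 22 without SN-011 replicate 3 and 1 without PBS replicate 2. The 519 came without SN-011 replicate 2, where all SN-011 libraries carry Xist and all PBS libraries Y-linked reads. Treatment and sex cannot be told apart there.

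In Trex1-/- against WT, 840 genes were called with no filter, 907 by the DESeq2 Wald test and 805 by edgeR's exact test. With 1 library left out the number ran from 136 (without WT replicate 1) to 585, at 142 without WT replicate 2, 209 without PBS replicate 2 and 219 without PBS replicate 1. For Pde9a, fits with 1 library left out ran from -0.56 to -0.48; its call was also lost in libraries with Y-linked reads (-0.49, adjusted p 0.127). Serpinb8 ran from -0.013 (without WT replicate 1, where its sign changed) to 0.17, and Cbarp in SN-011 minus WT, near 0 in the reported fit (0.01), was -0.11 in libraries with Y-linked reads, -0.06 without SN-011 replicate 1 or WT replicate 2, -0.011 with upper-quartile factors and -0.0018 with no filter. The causes were not tested. Of the 6 members, Cbarp and Serpinb8 had the largest counting error on the log2 scale (0.096 and 0.079), at 138 to 301 and 171 to 512 reads per library.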
